A study of Homo sapiens with 12 samples.

Results

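The 37 genes described here are interferon-stimulated genes, taken from a list of gene names, out of 35810 genes that had a transcript in the tables. Of the 37, 29 passed the filter on low counts and were among the 12821 genes tested, and the other 8 are given by their counts. The cells were HepG2, a human liver tumour line, either wild type (WT) or carrying a CRISPR/Cas9 knockout of ARID1B (ARID1B-KO), which encodes a subunit of the BAF complex, a remodeller of chromatin. Each genotype was given the kinase inhibitor sorafenib at 5 µM for 48 h or DMSO vehicle (0.1% by volume). The 4 groups were therefore WT with DMSO, WT with sorafenib, ARID1B-KO with DMSO and ARID1B-KO with sorafenib, with 3 libraries each and 12 in all. The design asks how loss of ARID1B changes expression at rest and under the drug. The replicates are described as biological, but nothing states how the cultures were kept apart or how many knockout clones were used, so p-values measure the spread between these libraries.

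Interferons bind receptors that activate the kinases JAK1 and TYK2, which phosphorylate STAT proteins such as STAT2. A complex that holds STAT2 and IRF9 binds the interferon-stimulated response element (ISRE) in promoters, whereas STAT dimers bind the gamma-activated site (GAS). The induced proteins sense or degrade viral RNA, block membrane fusion, attach the ubiquitin-like protein ISG15 or ADP-ribose to other proteins, or feed back on the pathway, and in liver cells they are known for limiting hepatitis viruses.

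Libraries held 19739582 to 29398257 estimated counts, and mitochondrial genes took 6.75% to 12.27% of them. Levels within a gene are given as CPM, counts scaled to library size. ARID1B, the targeted gene, had a mean of 62.4 CPM in untreated and 66.3 CPM in treated WT, against 27.3 and 29.3 CPM in ARID1B-KO, with no overlap between genotypes. All 15 hepatocyte markers were at 1 CPM or more on average. Their summed level was 95100 to 104975 CPM in WT with DMSO, 121945 to 133521 in WT with sorafenib, 102434 to 123215 in ARID1B-KO with DMSO and 131994 to 205014 in ARID1B-KO with sorafenib. Of 15 leukocyte markers, 3 reached a mean of 1 CPM (CD14, LYZ, CD68) and 4, including the leukocyte-defining PTPRC, had no counts. The summed leukocyte list was almost wholly LYZ and ranged over 3639 to 4049, 839 to 953, 1850 to 2482 and 489 to 626 CPM in the same order of groups. Of 10 fibroblast and endothelial markers, 3 reached 1 CPM, COL1A2, DCN and KDR had no counts, and the sums were 15 to 24, 6.10 to 8.09, 5.58 to 11.2 and 7.95 to 12.3 CPM. The part of these marker differences in the results below was not tested. In bulk RNA, fewer cells of a type and less RNA per cell cannot be told apart.

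Promoter sequence was a property that the choice of the 37 genes did not use. RefSeq promoter windows on GRCh38.p14, from 250 bases before to 50 bases after a start site, were at hand for 31 members. The ISRE was searched as GAAA, any 2 bases and GAAA again, and the GAS as TTC, any 3 bases and GAA, on both strands, counting matches that overlap. An ISRE match lay in the window of 23 of the 31 members (74.2%), against 4.38% of all 27305 genes with a window, or 3.57% of 35116 windows. A GAS match lay in 11 of 31 (35.5%), against 9.38% of all genes, or 7.66% of windows. STAT2, IRF9, IRF1, OAS1, HERC6, IFI35, XAF1 and SP110 had no ISRE match, which says only that those letters are not in that window. The stretches below are those of members the results turn on. Each is printed on the strand of its gene, 5′ to 3′, with the ISRE match in capitals (in either orientation) and 10 bases on either side:
DTX3L, chr3:122564322-122564351, plus strand: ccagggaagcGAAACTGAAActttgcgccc
PARP9, chr3:122564322-122564351, minus strand: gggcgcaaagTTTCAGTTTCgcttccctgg
PARP14, chr3:122680800-122680829, plus strand: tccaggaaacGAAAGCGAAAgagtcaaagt
PARP12, chr7:140062942-140062971, minus strand: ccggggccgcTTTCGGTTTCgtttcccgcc
IFIT1, chr10:89392510-89392539, plus strand: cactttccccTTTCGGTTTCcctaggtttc
IFIT3, chr10:89332425-89332454, plus strand: acagattctgTTTCAGTTTCccctcaagag
IFIH1, chr2:162318686-162318715, minus strand: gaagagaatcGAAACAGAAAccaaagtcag
OAS3, chr12:112938452-112938481, plus strand: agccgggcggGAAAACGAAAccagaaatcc
IFITM3, chr11:320876-320905, minus strand: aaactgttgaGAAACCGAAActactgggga
MX1, chr21:41420559-41420588, plus strand: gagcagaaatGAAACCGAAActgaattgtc

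The first pair of lines is the same stretch of DNA. DTX3L starts at position 122564338 on the plus strand and PARP9 has a start site at 122564300 on the minus strand, 38 bases apart. The windows of these start sites hold a single shared ISRE match. PARP9 has another start site at 122564784, 446 bases from that of DTX3L, whose window holds no ISRE match. The leading PARP9 transcript shares 139 exonic bases with DTX3L, so its start lies beyond 122564300. Members that had a GAS match and no ISRE match included the transcription factors IRF1 and IRF9, and IFI35. Their stretches are shown with the GAS match in capitals, since these members differ from the others in the motif they hold:
IRF1, chr5:132490879-132490907, minus strand: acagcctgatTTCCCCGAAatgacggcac
IRF9, chr14:24161192-24161220, plus strand: accacgtgatTTCTGGGAAaaggccctcc
IFI35, chr17:43006752-43006780, plus strand: aggcagggatTTCACGGAAatgaaagtgg

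**Figure D1:**
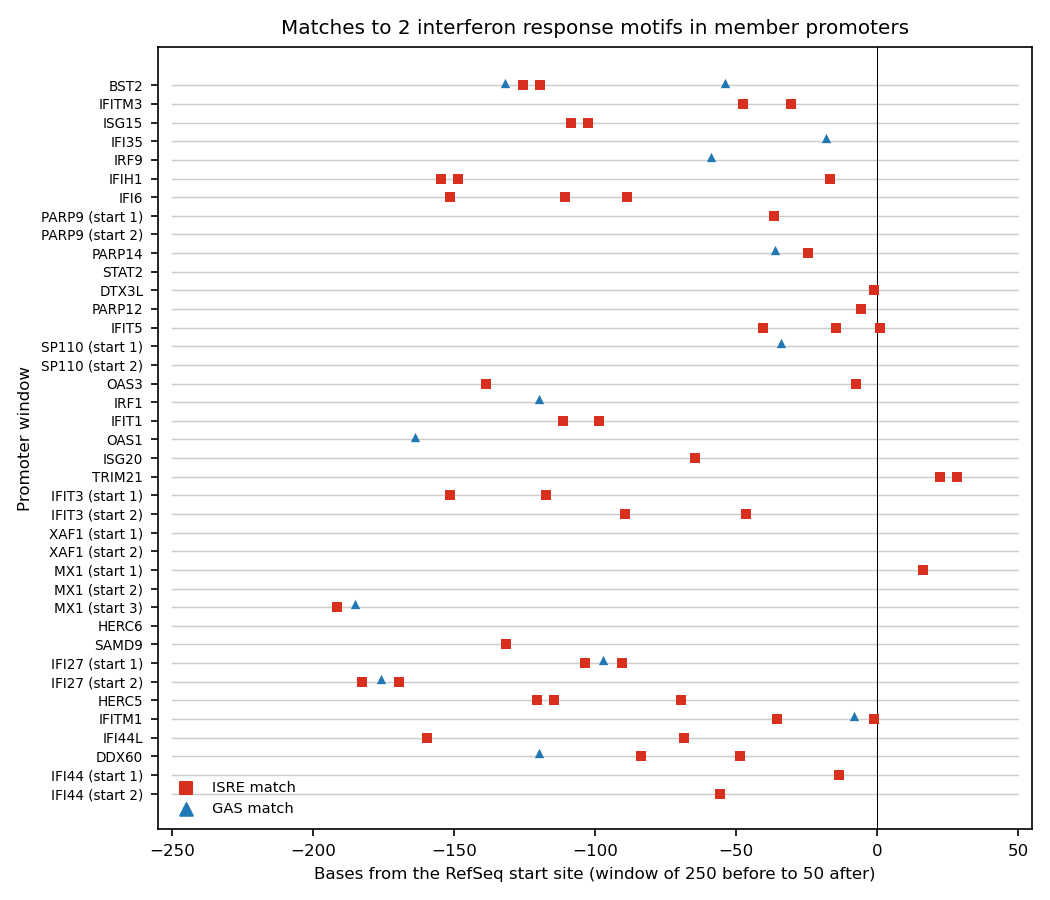
Position of each ISRE match (squares) and GAS match (triangles) in the promoter windows of the 31 members that had one, in bases from the RefSeq start site; members with several start sites have several lines. ISRE matches lay in windows of 23 members and GAS matches in windows of 11.

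Levels between genes were compared as TPM, which is scaled per transcript length, summed over the transcripts of a gene. BST2 (a membrane tether of budding virus) and IFITM3 (a membrane protein that blocks virus entry) had the highest means over the 12 libraries, 78.7 and 74.1 TPM, but their order depended on the group. In WT with DMSO, IFITM3 was at 123 ± 16.1 TPM (SD, n = 3) and BST2 at 59.3 ± 6.67. In ARID1B-KO with sorafenib, BST2 was at 96.1 ± 16.9 and IFITM3 at 33.2 ± 3.93 TPM, and in library 3 of that group IRF9 (36.1 TPM) and ISG15 (31.7) were above IFITM3 (31.2). The next by that mean were ISG15 at 25.7 TPM, IFI35 at 23.4, IRF9 at 18.2, IFIH1 at 15.6 and USP18 at 14.4, whose ranges overlap. In WT with DMSO, IFITM3 was at the 92.0th percentile of the tested genes, PARP9 at the 25.4th, IFIT1 at the 15.3rd and MX1 at the 11.2th.

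The 8 members outside the filter were IRF7, a transcription factor that amplifies interferon production; OAS2 and OASL of the oligoadenylate synthetase family; the helicase DDX60; IFITM1; and IFI27, IFI44 and IFI44L. Their summed counts over all 12 libraries were 6 for IRF7, 26 for OAS2, 42 for OASL, 53 for DDX60, 17 for IFITM1, 59 for IFI27, 2 for IFI44 and 18 for IFI44L. No library held more than 14 counts of any of them. These counts were too few for the test, and no difference between groups is given for them.

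**Figure D2:**
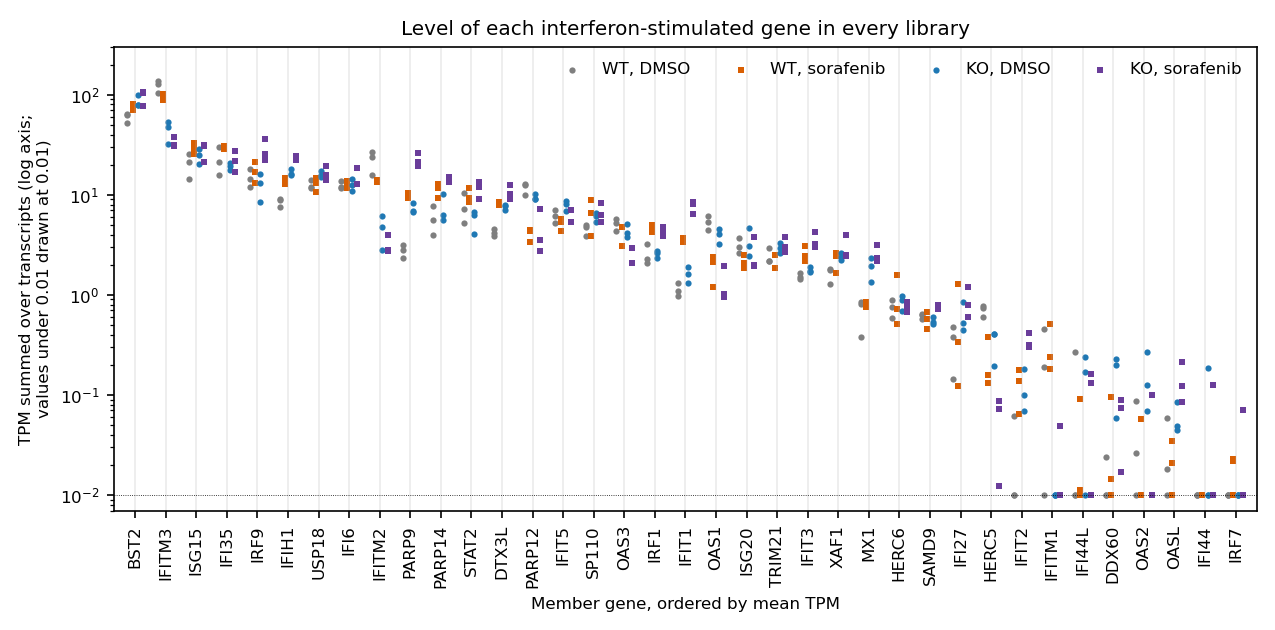
TPM of each of the 37 members in every library (log axis, values under 0.01 drawn at 0.01), ordered by the mean over 12 libraries; colour and marker give the group. BST2 and IFITM3 have the highest means, 78.7 and 74.1 TPM, with IFITM3 lower in the ARID1B-KO libraries, and the members at the right end have few or no counts.

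Genes were called at an adjusted p under 0.05 in the quasi-likelihood test of edgeR, with Benjamini-Hochberg adjustment over all 12821 genes. Under sorafenib, WT cells had 11 members called higher and 3 called lower of 29 tested. Sorafenib changed much of the transcriptome: 17.5% of all tested genes were called higher and 18% lower, so 48.3% of members called compares with a background of 35.4%. The median log2 fold change of the members was 0.27, against -0.01 over all genes. In ARID1B-KO, 13 members were called higher and 4 lower against backgrounds of 23% and 23.7%, and 58.6% called in either direction against 46.7%. Their median was 0.37, against 0.01 over all genes. The values of treated and control libraries did not overlap for 19 members in WT (background 50.8%) and 17 in ARID1B-KO (background 52.9%).

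Loss of ARID1B without drug raised 6 members and lowered 4 of 29, against backgrounds of 14.3% higher and 13.5% lower and 27.8% in either direction. The median log2 fold change was 0.13, against 0.01 over all genes, and 14 members did not overlap between genotypes (background 42.2%). Under sorafenib, ARID1B-KO was above WT for 10 members and below it for 6, against 13.2% higher, 13.8% lower and 27% in either direction. The median was 0.29, and 17 members did not overlap (background 42.7%). Of these 16 calls 6 held under every alternative. With an offset for transcript length 10 of the 16 ended and a call of DTX3L was added, which gave 5 higher and 2 lower. Without WT sorafenib library 1 or 3 or ARID1B-KO sorafenib library 2 the 10 higher became 4, 5 and 5. Each group enters 2 of these 4 comparisons, so values of a drug comparison and a genotype comparison are not independent. IFIT2, IFIT5, ISG20, HERC6 and SAMD9 were called in none of these comparisons. Of the 57 calls, 33 held under every alternative tried. The length offset ended 23, and 22 ended in both limma on log2(TPM + 1) and limma on log2(TPM + 0.1). The paragraphs below mainly name the length offset and the libraries left out, and not every alternative that ended a call.

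**Figure D3:**
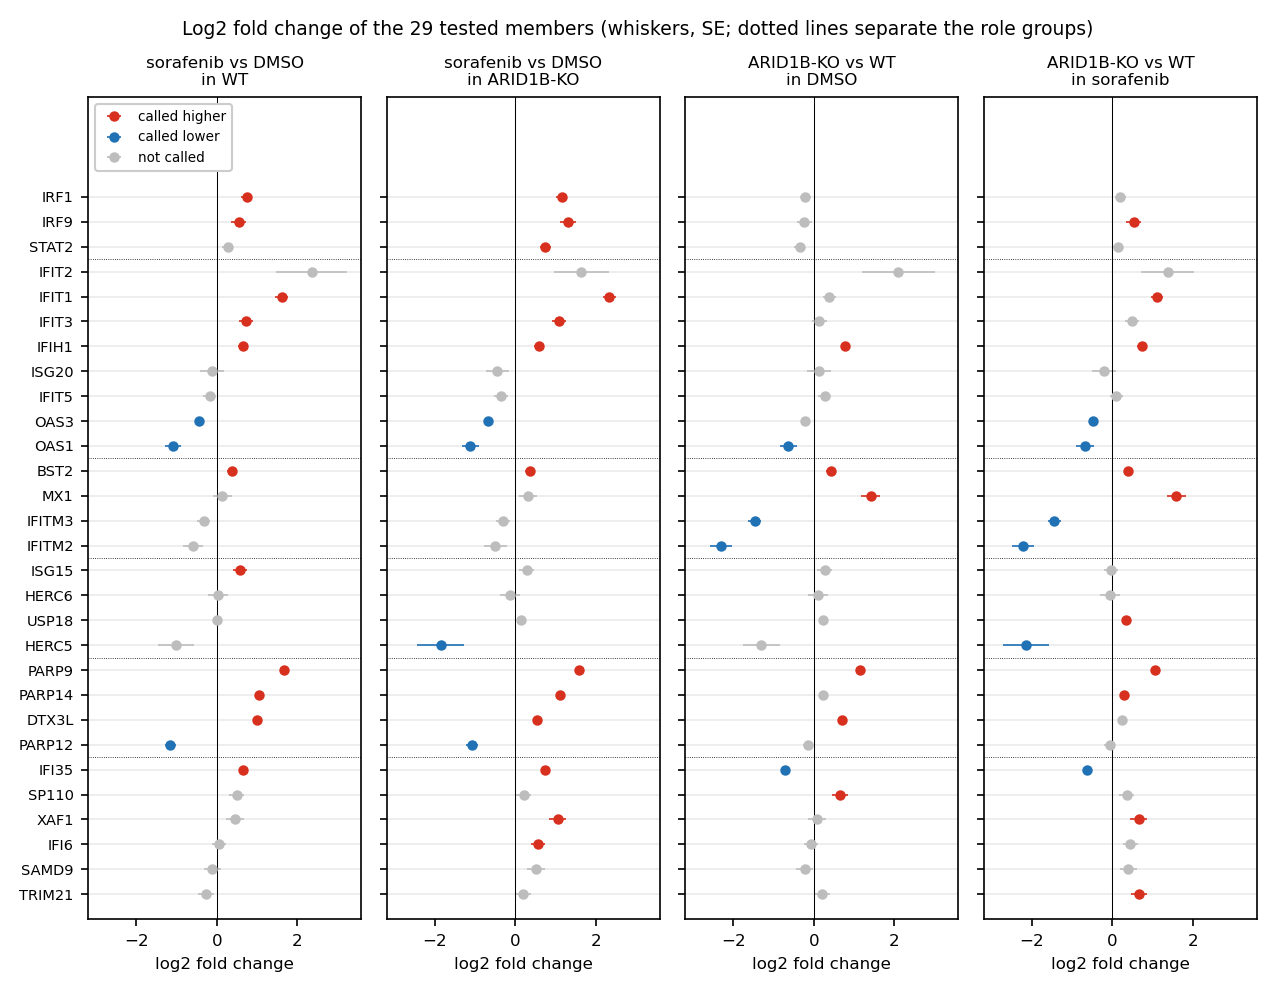
Log2 fold change (points) and its SE (whiskers) of the 29 tested members in the 4 comparisons, grouped by role and ordered by the change in WT within a role; red, called higher; blue, called lower; grey, not called. Sorafenib has 11 red and 3 blue points in WT and 13 and 4 in ARID1B-KO. IFIT2, drawn here, has few counts and passed the filter through treated ARID1B-KO alone.

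Of the 4 transcription factors 3 were tested, of which 2 rose under sorafenib in WT and 3 in ARID1B-KO. IRF1, which binds ISRE-like sites and is itself induced by interferon, was at 6.47, 6.04 and 7.42 CPM in WT with DMSO and 10.9, 11.8 and 10.7 CPM with sorafenib. In ARID1B-KO it was at 6.61, 5.30 and 5.34 CPM with DMSO and 13.8, 12.9 and 11.7 CPM with sorafenib. All treated libraries lay above all untreated ones, and the genotypes overlapped under both treatments. The log2 fold change was 0.74 ± 0.13 (SE) in WT (edgeR adjusted p = 0.000688) and 1.15 ± 0.13 in ARID1B-KO (1.53e-05). Between genotypes it was -0.21 ± 0.13 with DMSO and 0.20 ± 0.13 with sorafenib, neither called.

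IRF9, the DNA-binding part of the interferon-activated complex, was at 5.72, 6.55 and 8.84 CPM in WT with DMSO and 9.51, 11.2 and 9.96 CPM with sorafenib. In ARID1B-KO it went from 5.42, 5.21 and 7.26 CPM to 12.3, 15 and 17.1 CPM. Treated libraries lay above untreated ones in each genotype, and the treated ARID1B-KO libraries lay above the treated WT ones. The rise was 1.31 ± 0.19 in ARID1B-KO (edgeR adjusted p = 0.000101) and 0.54 ± 0.19 in WT (0.0376), and the genotype difference under sorafenib was 0.53 ± 0.18 (0.0465). The WT rise ended with an offset for transcript length (0.26, adjusted p = 0.514) and without WT DMSO library 1 or 2, any WT sorafenib library or ARID1B-KO sorafenib library 2 (adjusted p = 0.0524 to 0.138). The genotype difference ended with that offset, though no smaller (0.70, adjusted p = 0.0816), and without ARID1B-KO sorafenib library 2 or 3, any WT sorafenib library or WT DMSO library 2 (adjusted p = 0.0612 to 0.151).

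STAT2, which acts in a complex with IRF9, was at 20.9, 27.3 and 28.4 CPM in WT with DMSO and 31.1, 28.4 and 32.9 CPM with sorafenib. In ARID1B-KO it was at 16.5, 22.5 and 21.0 CPM with DMSO and 33.9, 30.9 and 36.5 CPM with sorafenib. Only in ARID1B-KO were the treated and untreated libraries apart. STAT2 rose by a log2 fold change of 0.75 ± 0.14 there (edgeR adjusted p = 0.000585) and was at 0.27 ± 0.13 in WT (0.131). The difference of these responses was 0.48 ± 0.19 and not called (adjusted p = 0.238). Between genotypes with DMSO it was at -0.35 ± 0.14 (0.0728), which was called without WT DMSO library 1 (-0.48, 0.016) or ARID1B-KO DMSO library 2 (-0.45, 0.0496).

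Among proteins that bind, sense or degrade RNA, IFIT1, IFIT3 and IFIH1 rose under sorafenib in both genotypes and OAS1 and OAS3 fell. IFIT1, which binds viral RNA lacking the host cap modification, was at 3.80, 3.04 and 2.59 CPM in WT with DMSO and 9.72, 9.33 and 9.88 CPM with sorafenib. In ARID1B-KO it was at 4.37, 3.37 and 4.57 CPM with DMSO and 18.5, 22.7 and 21.1 CPM with sorafenib. The treated ARID1B-KO libraries were above all others, and the untreated genotypes overlapped. The log2 fold change of sorafenib was 1.61 ± 0.16 in WT (edgeR adjusted p = 8.5e-06) and 2.34 ± 0.16 in ARID1B-KO (2.55e-07), a 3.06-fold and a 5.07-fold rise. ARID1B-KO was above WT by 1.11 ± 0.15 under sorafenib (adjusted p = 0.000183) and by 0.38 ± 0.16 with DMSO, which was not called (0.104). The DMSO difference was called without ARID1B-KO DMSO library 2 (0.50, adjusted p = 0.0476) or WT DMSO library 1 (0.55, 0.0316).

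IFIT3, a partner of IFIT1, went from 2.94, 3.28 and 2.77 CPM to 4.41, 6.03 and 4.48 CPM in WT, and from 3.33, 3.10 and 3.46 CPM to 6.57, 8.25 and 6.07 CPM in ARID1B-KO. Treated and untreated libraries did not overlap in either genotype. The log2 fold changes were 0.73 ± 0.18 (edgeR adjusted p = 0.00608) and 1.08 ± 0.18 (0.000289). Under sorafenib the genotype difference was 0.49 ± 0.17 and just missed the threshold (adjusted p = 0.0522), although the libraries did not overlap. It was called without ARID1B-KO sorafenib library 3 (0.58, adjusted p = 0.0435) or WT sorafenib library 2 (0.64, 0.0266). IFIT2 had 4, 0 and 0 counts in WT with DMSO, 11, 3 and 7 in WT with sorafenib, 8, 3 and 4 in ARID1B-KO with DMSO and 18, 19 and 12 in ARID1B-KO with sorafenib, and was not called. IFIT2 reached the filter level, 0.451 CPM, in the 3 treated ARID1B-KO libraries alone. Leaving out WT DMSO library 1 leaves untreated WT at 0 counts, so the calls made then in WT under sorafenib (edgeR adjusted p = 0.00668) and between untreated genotypes (0.012) are against a count of 0. The ARID1B-KO response was also called then. That call rests on the group through which IFIT2 passed the filter, so no fold change is given for it. IFIT5 and ISG20 (an exonuclease), at 3546 and 596 counts in all, were not called, and ISG20 would have been in ARID1B-KO without its sorafenib library 3 (-0.81, adjusted p = 0.0393).

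IFIH1 encodes MDA5, a sensor of long double-stranded RNA. It was at 13.8, 11.5 and 14.5 CPM in WT with DMSO and 22.3, 21.1 and 18.5 CPM with sorafenib. In ARID1B-KO it was at 24.9, 20.5 and 23.2 CPM with DMSO and 33.7, 33.6 and 35.6 CPM with sorafenib. Untreated ARID1B-KO thus stood near treated WT, and every other step was without overlap. Sorafenib raised IFIH1 by a log2 fold change of 0.64 ± 0.11 in WT (edgeR adjusted p = 0.000662) and 0.58 ± 0.11 in ARID1B-KO (0.000717). The genotype difference was 0.78 ± 0.11 with DMSO (0.000209) and 0.73 ± 0.11 with sorafenib (0.000324).

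The oligoadenylate synthetases make the messenger that activates RNase L, and both tested members fell. OAS1 went from 6.26, 5.20 and 6.41 CPM to 3.48, 1.91 and 2.97 CPM in WT, and from 4.04, 3.95 and 3.46 CPM to 1.56, 2.02 and 1.68 CPM in ARID1B-KO. Treated libraries lay below untreated ones in each genotype. The log2 fold change was -1.09 ± 0.21 in WT (edgeR adjusted p = 0.00159) and -1.12 ± 0.22 in ARID1B-KO (0.0012). OAS1 was also called lower in ARID1B-KO than in WT, by -0.64 ± 0.21 with DMSO (0.0378) and -0.68 ± 0.22 with sorafenib (0.0396), where the libraries overlapped. The DMSO call ended in 11 of 21 alternatives, among them leaving out any of the 6 libraries compared (adjusted p = 0.05 to 0.116) and the length offset (-0.51, 0.301). The sorafenib call ended in 13 of 21, with the length offset at -0.56 (0.28) and 7 libraries left out in turn at 0.0504 to 0.167 (WT sorafenib 1 and 3, WT DMSO 3, ARID1B-KO DMSO 2 and ARID1B-KO sorafenib 1, 2 and 3).

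OAS3 was at 33.4, 32.5 and 37.7 CPM in WT with DMSO and 26.5, 26.6 and 23.4 CPM with sorafenib, and at 30.5, 31.0 and 27.3 CPM in ARID1B-KO with DMSO and 18.1, 17.5 and 19.3 CPM with sorafenib. The treated ARID1B-KO libraries were the lowest and no pair of groups overlapped in the 4 comparisons. The fall was -0.44 ± 0.09 in WT (edgeR adjusted p = 0.00229) and -0.69 ± 0.09 in ARID1B-KO (5.71e-05), and the genotype difference under sorafenib was -0.48 ± 0.09 (0.00212). With the length offset the WT fall (adjusted p = 0.145) and the genotype difference (0.156) were no longer called at nearly the same size, -0.43 and -0.44.

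Of the membrane restriction factors and MX1, all 4 that were tested were called between genotypes under both treatments, and BST2 alone was called under the drug. IFITM3 was at 54.1, 41.1 and 44.7 CPM in WT with DMSO, 36.2, 37.4 and 38.2 CPM in WT with sorafenib, 12.7, 17.5 and 20.1 CPM in ARID1B-KO with DMSO and 16.2, 12.4 and 12.1 CPM in ARID1B-KO with sorafenib. IFITM2, a related entry inhibitor, was at 10.6, 6.69 and 10.0 CPM, 6.06, 6.37 and 5.69 CPM, 1.09, 2.47 and 1.92 CPM, and 1.30, 1.05 and 1.53 CPM in the same order. All ARID1B-KO libraries lay below all WT libraries for both genes. Against WT, the ARID1B-KO log2 fold change was -1.47 ± 0.16 for IFITM3 with DMSO (edgeR adjusted p = 2.88e-05) and -1.45 ± 0.16 with sorafenib (4.16e-05). For IFITM2 it was -2.31 ± 0.27 (3.98e-05) and -2.22 ± 0.27 (7.87e-05). Under sorafenib neither was called by the test over all 12 libraries, at -0.33 ± 0.16 and -0.30 ± 0.17 for IFITM3 and -0.59 ± 0.24 and -0.50 ± 0.28 for IFITM2 in WT and ARID1B-KO. Without ARID1B-KO DMSO library 1 the ARID1B-KO values were called for IFITM3 (-0.45, adjusted p = 0.0338) and IFITM2 (-0.74, 0.0307), as was the WT value of IFITM2 (0.0329), also without WT DMSO library 2 (-0.77, 0.0396). Fitting only the groups compared called both in WT (IFITM2 0.0279, IFITM3 0.0344). The IFITM genes are similar neighbours on chromosome 11, so the split of reads between them is uncertain.

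MX1, a GTPase that traps viral nucleocapsids, went the other way. It was at 1.30, 2.25 and 2.02 CPM in WT with DMSO, 1.43, 2.49 and 2.22 CPM in WT with sorafenib, 4.47, 4.81 and 5.48 CPM in ARID1B-KO with DMSO and 6.40, 6.15 and 5.93 CPM in ARID1B-KO with sorafenib. All ARID1B-KO libraries lay above all WT libraries, and within ARID1B-KO the treated libraries lay above the untreated ones. ARID1B-KO was higher by a log2 fold change of 1.41 ± 0.24 with DMSO (edgeR adjusted p = 0.000798) and 1.59 ± 0.24 with sorafenib (0.000328), and sorafenib gave 0.14 ± 0.24 and 0.32 ± 0.23, neither called.

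BST2 was at 52.9, 60.2 and 58.7 CPM in WT with DMSO, 72.3, 79.4 and 71.7 CPM in WT with sorafenib, 72.9, 84.5 and 71.8 CPM in ARID1B-KO with DMSO, and 112.0, 105.0 and 78.9 CPM in ARID1B-KO with sorafenib. The treated ARID1B-KO library 3 stood below 1 untreated ARID1B-KO library, and untreated ARID1B-KO was level with treated WT. BST2 was called higher in all 4 comparisons, with log2 fold changes from 0.37 to 0.42 (each SE 0.12, edgeR adjusted p = 0.0202 to 0.0252). None of these calls held with the length offset, where the fold changes were 0.30 to 0.46 (adjusted p = 0.0757 to 0.187). Leaving out a library ended the WT response without WT DMSO 1 or 3 or WT sorafenib 2 (adjusted p = 0.0504 to 0.0907) and the ARID1B-KO response without ARID1B-KO DMSO 1 or 3 or sorafenib 1 or 2 (0.0652 to 0.0941). The genotype difference with DMSO ended without ARID1B-KO DMSO 2 or WT DMSO 1 (0.064 to 0.0944), and that with sorafenib without ARID1B-KO sorafenib 1 or 2 or WT sorafenib 1 or 3 (0.077 to 0.0983).

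Of ISG15, HERC5, HERC6 and USP18, 1 rose under sorafenib in WT and 1 fell in ARID1B-KO (25% called in each, against 35.4% and 46.7% of all genes). ISG15 itself, a ubiquitin-like modifier, was at 12.3, 8.19 and 13.2 CPM in WT with DMSO and 17.1, 15.1 and 18.3 CPM with sorafenib, and at 14.1, 11.0 and 15.5 CPM in ARID1B-KO with DMSO and 13.4, 18.3 and 17.5 CPM with sorafenib. The groups were apart in WT and overlapped in ARID1B-KO. It rose by a log2 fold change of 0.58 ± 0.18 in WT (edgeR adjusted p = 0.0257) and was at 0.28 ± 0.18 in ARID1B-KO (0.242), and the difference of responses was -0.31 ± 0.26 (0.628). The WT call ended with the length offset at the same size (0.59, 0.0674) and without WT DMSO library 2 or WT sorafenib library 1 or 3 (0.0651 to 0.0972).

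USP18, which removes ISG15 and restrains the interferon receptor, was at 32.6, 27.8 and 26.6 CPM in WT with DMSO, 29.6, 26.1 and 32.0 CPM in WT with sorafenib, 35.4, 31.5 and 34.8 CPM in ARID1B-KO with DMSO and 35.1, 36.0 and 41.2 CPM in ARID1B-KO with sorafenib. Treated ARID1B-KO libraries lay above treated WT libraries. That difference was 0.35 ± 0.11 (edgeR adjusted p = 0.0254), and ended with the length offset at the same size (0.35, 0.111) or without WT sorafenib library 1 or 2 or ARID1B-KO sorafenib library 3 (0.0613 to 0.11). Without WT DMSO library 1 the DMSO difference was called as well (0.32, adjusted p = 0.0473, against 0.23 and 0.135 with it).

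HERC5, the main ISG15 ligase in human cells, was scarce, at 26, 24 and 27 counts in WT with DMSO, 15, 11 and 10 in WT with sorafenib, 10, 12 and 4 in ARID1B-KO with DMSO and 1, 2 and 4 in ARID1B-KO with sorafenib. The lowest counts were in treated ARID1B-KO, whose library 3 was level with untreated library 3, and counts this few make the fold changes imprecise. It reached the filter level in 7 libraries, none of them treated ARID1B-KO, and the filter removed it from the fits of only the groups compared for both calls below. It fell by a log2 fold change of 1.86 ± 0.58 under sorafenib in ARID1B-KO (edgeR adjusted p = 0.0191), and was lower than in treated WT by -2.15 ± 0.57 (0.0137). The first call ended without ARID1B-KO DMSO library 1 or 2 or sorafenib library 1 or 2 (0.0553 to 0.0842). The second ended without ARID1B-KO sorafenib library 1 or 2 (0.0561 to 0.0563) and with the length offset (-2.06, 0.0705). In WT, sorafenib gave -1.02 ± 0.45 (0.0963). That was called when only the groups compared were fitted (-1.01, 0.0443) and by limma on log2(TPM + 0.1) (0.0175) and log2(TPM + 1) (0.00676). The genotype difference with DMSO was -1.31 ± 0.46 (0.0509), and was called without ARID1B-KO sorafenib library 1 or 3 (adjusted p = 0.0478 and 0.0461). RLE factors (0.0496), a filter at a mean of 1 CPM (0.0388) and limma on log2(TPM + 1) (0.0374) called it too. HERC6, a related protein, was not called in any comparison.

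All 4 of the PARP family and DTX3L were called under sorafenib in both genotypes: 3 rose, PARP12 fell, and each of these calls held under every alternative tried. PARP9, a macrodomain protein that pairs with DTX3L, is at chr3:122527924-122564577 on the minus strand. It was at 7.74, 6.65 and 8.62 CPM in WT with DMSO, 24.1, 26.2 and 23.7 CPM in WT with sorafenib, 16.8, 16.6 and 17.8 CPM in ARID1B-KO with DMSO and 48.5, 51.4 and 54.5 CPM in ARID1B-KO with sorafenib. The 4 groups were wholly apart, with untreated WT lowest, untreated ARID1B-KO next and treated ARID1B-KO highest. Sorafenib raised PARP9 by a log2 fold change of 1.68 ± 0.10 in WT (edgeR adjusted p = 1.17e-07) and 1.59 ± 0.10 in ARID1B-KO (1.04e-07), 3.20-fold and 3.01-fold. ARID1B-KO was above WT by 1.15 ± 0.10 with DMSO (3.82e-06) and 1.06 ± 0.09 with sorafenib (4.42e-06). The response did not differ between genotypes beyond its error, at -0.09 ± 0.14 (adjusted p = 0.822).

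DTX3L, the ubiquitin ligase of that pair, is at chr3:122564338-122575203 on the plus strand. It was at 17.3, 18.7 and 20.1 CPM in WT with DMSO and 36.2, 37.5 and 37.8 CPM with sorafenib. In ARID1B-KO it was at 30.2, 32.2 and 29 CPM with DMSO and 41.0, 42.6 and 49.0 CPM with sorafenib. The 4 groups were again apart in the same order, but treated ARID1B-KO stood only a little above treated WT. Sorafenib raised it by a log2 fold change of 0.99 ± 0.09 in WT (edgeR adjusted p = 4.02e-06) and 0.54 ± 0.09 in ARID1B-KO (0.000311). The genotype difference was 0.71 ± 0.09 with DMSO (9.97e-05) and 0.25 ± 0.09 with sorafenib, which was not called (0.0516). Leaving out any untreated ARID1B-KO library, ARID1B-KO sorafenib library 1 or WT DMSO library 1 brought it past the threshold (adjusted p = 0.0339 to 0.049). The sorafenib difference was also called with the length offset (0.33, adjusted p = 0.0441) and by DESeq2 (0.0361). RLE factors (0.0457) and a filter at a mean of 1 CPM (0.0398) called it too. The smaller response in ARID1B-KO, a difference of -0.46 ± 0.13, was not called by edgeR (0.104) and was called by DESeq2 (-0.45, 0.0334).

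PARP14, a mono-ADP-ribosyltransferase at chr3:122680839-122730840, was at 20, 22.2 and 24 CPM in WT with DMSO, 43.9, 48.2 and 44.5 CPM in WT with sorafenib, 24.2, 27.4 and 26.1 CPM in ARID1B-KO with DMSO, and 55.6, 57.6 and 53.7 CPM in ARID1B-KO with sorafenib. The drug separated the groups widely and the genotypes by little. Sorafenib gave a log2 fold change of 1.04 ± 0.09 in WT (edgeR adjusted p = 1.86e-06) and 1.10 ± 0.09 in ARID1B-KO (7.13e-07). The genotype difference was 0.29 ± 0.08 with sorafenib (0.0222), a call that ended with the length offset (0.34, 0.362) and without WT sorafenib library 1 or 3 or ARID1B-KO sorafenib library 2 (0.0764 to 0.0804). With DMSO it was 0.23 ± 0.09 (0.0664), called without WT DMSO library 3 (0.29, adjusted p = 0.0451). These are differences of gene sums. The protein-coding share of the PARP14 counts was 52.2% in treated WT and 25.3% in treated ARID1B-KO, so the higher sum is not one of coding transcripts.

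PARP12, another mono-ADP-ribosyltransferase, fell. It went from 21.6, 22.6 and 23.4 CPM to 11.0, 9.53 and 9.75 CPM in WT and from 21.8, 20.2 and 19.1 CPM to 10.4, 7.34 and 11.2 CPM in ARID1B-KO. Treated libraries lay far below untreated ones and the genotypes overlapped. The log2 fold change was -1.16 ± 0.14 in WT (edgeR adjusted p = 3.14e-05) and -1.08 ± 0.14 in ARID1B-KO (3.7e-05), and the genotype differences were -0.15 ± 0.13 and -0.07 ± 0.14.

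Of the 9 remaining members, 6 were tested. IFI35, a modulator of innate signalling, was at 19.4, 19.8 and 20.6 CPM in WT with DMSO and 30.5, 31.5 and 32.0 CPM with sorafenib, and at 12.8, 12.2 and 11.7 CPM in ARID1B-KO with DMSO and 19.9, 22.1 and 18.9 CPM with sorafenib. It was up with the drug and down with the knockout. The log2 fold changes of sorafenib were 0.65 ± 0.08 in WT (edgeR adjusted p = 6e-05) and 0.73 ± 0.09 in ARID1B-KO (1.97e-05), and those of genotype -0.71 ± 0.09 with DMSO (6.11e-05) and -0.63 ± 0.08 with sorafenib (0.000136). With the length offset they shrank to 0.49 (0.128), 0.32 (0.295), -0.28 (0.418) and -0.45 (0.182), and none was called. The share of its counts on the leading transcript was 83.0% ± 11.5 (SD) in WT with DMSO and 62.4% ± 15.1 in ARID1B-KO with DMSO, n = 3 each.

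XAF1, a pro-apoptotic partner of XIAP, was at 2.60, 3.42 and 3.26 CPM in WT with DMSO, 4.52, 4.02 and 4.14 CPM in WT with sorafenib, 4.18, 2.88 and 2.64 CPM in ARID1B-KO with DMSO and 5.47, 6.15 and 8.54 CPM in ARID1B-KO with sorafenib. Treated ARID1B-KO was apart from all other groups. It rose by a log2 fold change of 1.05 ± 0.22 in ARID1B-KO (edgeR adjusted p = 0.00158) and was at 0.45 ± 0.22 in WT (0.124). The rise ended with the length offset (0.39, 0.258). The genotype difference under sorafenib, 0.66 ± 0.21 (0.035), ended with that offset (0.40, 0.307) and without any WT sorafenib library or ARID1B-KO sorafenib library 2 or 3 (0.0588 to 0.152).

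IFI6, a mitochondrial and endoplasmic reticulum protein, was at 10.9, 11.1 and 8.75 CPM in ARID1B-KO with DMSO and 18.3, 16.5 and 10.9 CPM with sorafenib, against 10.4, 11.8 and 10.1 CPM and 10.3, 13.0 and 10.2 CPM in WT. Treated ARID1B-KO libraries 1 and 2 were high and library 3 was within the untreated range. The rise of 0.57 ± 0.18 in ARID1B-KO (edgeR adjusted p = 0.0195) ended with the length offset (0.53, 0.0612) and without ARID1B-KO sorafenib library 1 or 2 or DMSO library 3 (0.068 to 0.0923). Without sorafenib library 3, IFI6 was called higher in treated ARID1B-KO than in treated WT (0.64, 0.00827). SP110, a nuclear body protein, was at 6.74, 6.93 and 5.85 CPM in WT with DMSO, 10.7, 6.41 and 10.2 CPM in WT with sorafenib, 11.0, 8.98 and 10.6 CPM in ARID1B-KO with DMSO, and 10.9, 10.4 and 14 CPM in ARID1B-KO with sorafenib. All untreated ARID1B-KO libraries were above the untreated WT ones.

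SP110 was called higher in ARID1B-KO with DMSO only, by 0.65 ± 0.19 (edgeR adjusted p = 0.0214). The call ended with the length offset (0.34, 0.4) and without ARID1B-KO DMSO library 1 or 3 or WT DMSO library 3 (0.0548 to 0.0823). In WT its drug response, 0.49 ± 0.19 (0.0582), was called without WT sorafenib library 2 (0.69, 0.00702) or ARID1B-KO sorafenib library 3 (0.49, 0.0472). TRIM21, a ubiquitin ligase that binds antibody-coated virus, was at 3.84, 5.22 and 3.64 CPM in treated WT and 6.86, 7.93 and 5.18 CPM in treated ARID1B-KO, against 4.72, 4.59 and 5.81 CPM and 6.09, 5.08 and 6.20 CPM untreated. The treated genotypes overlapped in 1 library each. Their difference of 0.66 ± 0.19 was called (0.024), but not with the length offset (0.61, 0.0852) or without WT sorafenib library 1 or 3 or ARID1B-KO sorafenib library 1 or 2 (0.0588 to 0.111). SAMD9, an antiviral and growth-restraining protein with 581 counts in all, was not called in any comparison.

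**Figure D4:**
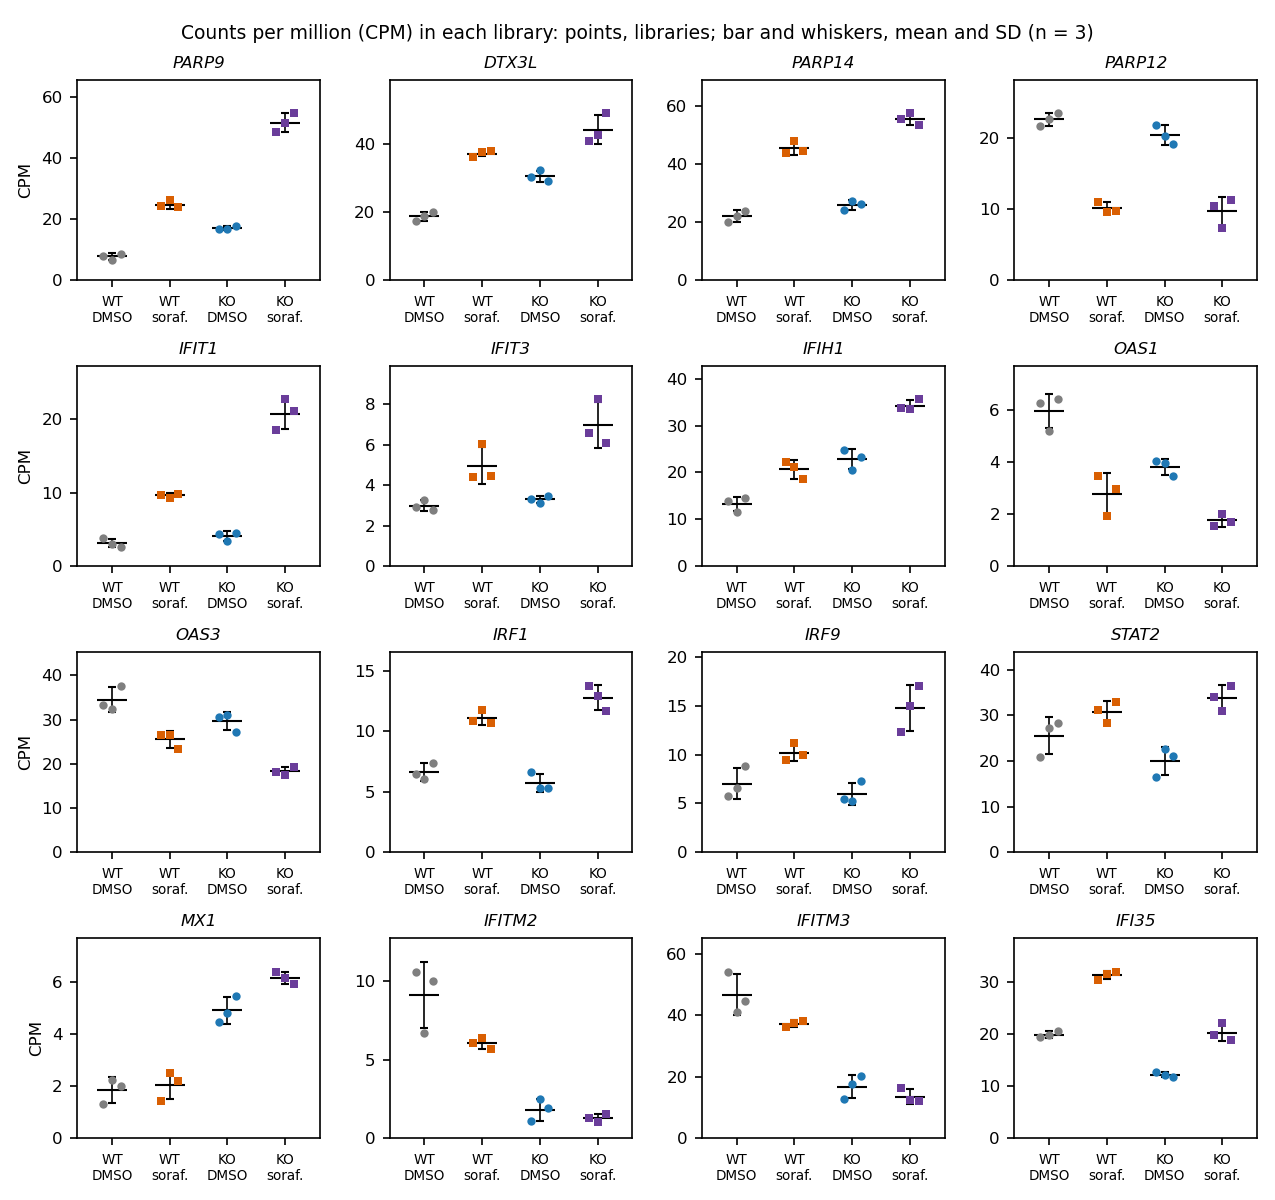
CPM of 16 members in each library (points) with the mean and SD of each group (bar and whiskers, n = 3); the vertical axis of each panel starts at 0. PARP9 lies between 6.65 and 8.62 CPM in untreated WT and between 48.5 and 54.5 CPM in treated ARID1B-KO, and IFITM3 is lower in every ARID1B-KO library.

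The responses of the 2 genotypes to sorafenib share no library and were set side by side. Of the members, 10 were called higher in both (IRF9, IRF1, IFIT1, IFIT3, IFIH1, BST2, PARP9, PARP14, DTX3L and IFI35), which is 10 of the 11 called higher in WT and 10 of the 13 in ARID1B-KO. OAS1, OAS3 and PARP12 were called lower in both. STAT2, IFI6, XAF1 and HERC5 were called in ARID1B-KO and not in WT (HERC5 was called in WT in some alternatives), and ISG15 in WT and not in ARID1B-KO. The log2 fold changes had the same sign for 26 of 29 members, with Pearson's r of 0.89 and Spearman's rho of 0.90 across these 29 genes. These genes are not independent replicates and were measured in the same libraries. The 29 include IFIT2, which passed the filter through treated ARID1B-KO alone, and values without it were not computed. Over all 12821 tested genes, 1751 were called higher in both, of 2239 called higher in WT and 2947 in ARID1B-KO. That is 13.7% of all genes, and 14.6% were called lower in both, against 34.5% and 10.3% of the 29 members. The sign was the same for 80.4% of all genes, against 89.7%, with r of 0.61 and rho of 0.75.

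A call in 1 genotype only does not show that the responses differ, and the test of that difference called none of the 29 members by edgeR, against 0.835% of all tested genes. At an unadjusted p under 0.05 it held 5 members (DTX3L, IFIT1, IRF9, STAT2 and IRF1), against 1963 of 12821 genes (15.3%), and 1 member, DTX3L, was called by DESeq2. The response of IFIT1 was larger in ARID1B-KO by 0.73 ± 0.22 (edgeR adjusted p = 0.14) and that of IRF9 by 0.77 ± 0.26 (0.18). That of IRF1 was larger by 0.41 ± 0.18 (0.307). These differences are given with their errors because a p above the threshold does not show equal responses.

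**Figure D5:**
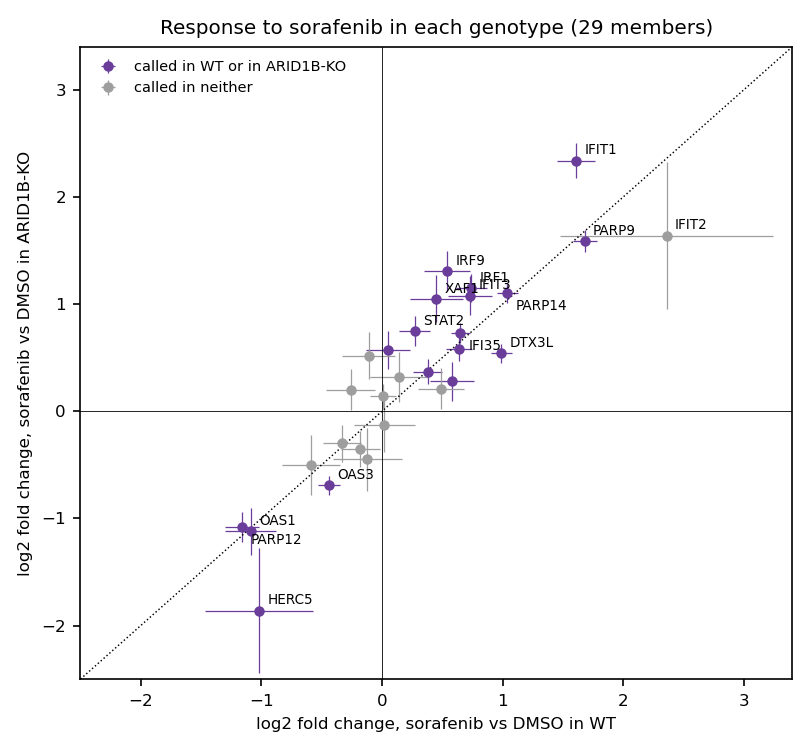
Log2 fold change of sorafenib against DMSO in WT (horizontal) and ARID1B-KO (vertical) for the 29 tested members, with SE whiskers (purple, called in either genotype; grey, in neither); the dotted line marks equal responses. Points lie along the line, with 26 of 29 having the same sign, IFIT1 above it and DTX3L below it. IFIT2, drawn here, has few counts and passed the filter through treated ARID1B-KO alone.

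The genotype comparisons with DMSO and with sorafenib also share no library. IFIH1, BST2, MX1 and PARP9 were called higher in ARID1B-KO under both treatments, and OAS1, IFITM2, IFITM3 and IFI35 lower under both, 13.8% of the 29 each way against 7.99% higher and 7.50% lower of all genes. DTX3L and SP110 were called higher with DMSO only, though DTX3L was called with sorafenib as well in 9 of 21 alternatives. IRF9, IFIT1, USP18, PARP14, XAF1 and TRIM21 were called higher, and OAS3 and HERC5 lower, with sorafenib only. The tests of these differences between treatments are those of the responses above, and none of them was called by edgeR.

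Members with and without an ISRE match were called in both directions. Of 18 tested members with a match, 8 were higher and 2 lower under sorafenib in WT, and 8 and 3 in ARID1B-KO. Of 8 tested members with a window and no match, 3 were higher and 1 lower in WT, and 5 and 1 in ARID1B-KO. Over all tested genes, 17.5% were higher and 18% lower in WT, and 23% and 23.7% in ARID1B-KO. Whether calls differ with the motif was not tested. Median log2 fold changes were 0.10 with a match and 0.47 without in WT, and 0.34 and 0.74 in ARID1B-KO. OAS3 and PARP12, whose ISRE matches are printed above, fell, while PARP9, PARP14 and DTX3L rose.

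The gene counts combine transcripts of different kinds. For PARP12, 64.3% of counts were on a retained-intron transcript and 2.08% on protein-coding ones, so most of its counts came from transcripts that do not code for the full protein. IFIH1 had 80.3% on a transcript with no defined coding sequence. IRF9 had 11.4% on protein-coding transcripts and 34.6% on a retained-intron one. STAT2 had 47.2% on protein-coding transcripts. In PARP14 the protein-coding share was 57.8% in WT with DMSO, 52.2% in WT with sorafenib, 43.1% in ARID1B-KO with DMSO and 25.3% in ARID1B-KO with sorafenib. The leading coding transcript of PARP14 ranged from 41.4% to 83.5% across the untreated WT libraries and from 14.5% to 31.9% across the treated ARID1B-KO libraries. PARP9, DTX3L, IFIT1, IFITM3 and ISG15 had 97.7% or more on protein-coding transcripts. Such shares are estimates, since short reads fit several transcripts.

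Some members overlap other genes, and the labels used here do not say whether counting used strand. PARP9 and DTX3L share 139 exonic bases on opposite strands, of 3128 and 5768 in their leading transcripts. The leading IRF1 transcript shares 227 of 2061 bases with an unnamed gene on the other strand that had 7143 counts and did not follow it (0.04 in WT, adjusted p = 0.869, and -0.46 in ARID1B-KO, 0.0295). The leading IRF9 transcript shares 1525 of 3008 bases with an unnamed gene on the same strand, at 2309 counts and not called, so IRF9 is uncertain. LIPA lies across IFIT1, IFIT2 and IFIT3 on the other strand with 68333 counts, and shares no exonic base with IFIT1. It shares 94 exonic bases with IFIT3 and 65 with IFIT2, none of them in their leading transcripts. The leading IFIT3 transcript held 50.4% of IFIT3 counts. Under sorafenib LIPA was at 0.17 ± 0.15 in WT (edgeR adjusted p = 0.416) and 0.41 ± 0.15 in ARID1B-KO (0.0349). Its part in the IFIT2 and IFIT3 counts was not tested. The OAS and IFIT genes, IFITM genes and USP18 have similar copies elsewhere, among which reads are divided.

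Upstream of these genes, 0 of 22 interferon genes passed the filter, and all had 0 counts in every library except IFNG, with 1 count in an untreated ARID1B-KO library. Of 11 genes for receptors, kinases and STATs, 4 were called higher and none lower under sorafenib in WT, and 4 higher and 1 lower in ARID1B-KO. The shares called, 36.4% and 45.5%, were near those of all genes, 35.4% and 46.7%. Between genotypes 1 was higher and 3 lower with DMSO, and 0 and 3 with sorafenib (36.4% and 27.3%, against 27.8% and 27% of all genes). The interferon-alpha receptor genes IFNAR1 and IFNAR2 were called in no comparison, with log2 fold changes from -0.20 to 0.16. JAK1 rose by 0.29 ± 0.09 in WT (edgeR adjusted p = 0.0186) and 0.25 ± 0.09 in ARID1B-KO (0.0293), and was lower in ARID1B-KO by -0.31 and -0.35. STAT3 rose by 0.80 ± 0.08 and 0.62 ± 0.08, and IL10RB, a receptor chain for interferon lambda, by 0.73 ± 0.16 and 0.92 ± 0.16. Its partner IFNLR1 was lower in ARID1B-KO with DMSO (-0.57 ± 0.15, 0.012), and TYK2 with sorafenib (-0.72 ± 0.23, 0.0347).

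Of 14 genes for nucleic acid sensing, 11 were tested, of which 4 were higher and 1 lower under sorafenib in WT, and 2 and 2 in ARID1B-KO (45.5% and 36.4% called, against 35.4% and 46.7% of all genes). Between genotypes 2 were higher and 2 lower with DMSO, and 4 and 4 with sorafenib (36.4% and 72.7%, against 27.8% and 27%). DHX58, a relative of IFIH1 that regulates RNA sensing, was at 1.51, 2.25 and 1.65 CPM in WT with DMSO, 3.26, 2.82 and 3.52 CPM in WT with sorafenib, 3.76, 3.37 and 4.14 CPM in ARID1B-KO with DMSO and 7.95, 8.53 and 8.39 CPM in ARID1B-KO with sorafenib. Untreated WT was lowest, treated ARID1B-KO was highest, and the groups between them overlapped. It rose by 0.84 ± 0.18 (edgeR adjusted p = 0.00309) and 1.14 ± 0.17 (0.000156) and was higher in ARID1B-KO by 1.07 ± 0.18 and 1.37 ± 0.17. RIGI, the other RNA helicase sensor, rose by 0.46 ± 0.10 and 0.65 ± 0.10. IKBKE, a kinase that activates interferon transcription, fell by 0.48 ± 0.16 and 0.54 ± 0.17 on the log2 scale and was lower in ARID1B-KO by -1.04 ± 0.16 and -1.09 ± 0.16. The adaptor TICAM1 was lower in ARID1B-KO under sorafenib (-0.86 ± 0.21, 0.0096).

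All 11 negative regulators were tested, with 5 higher and 1 lower under sorafenib in WT, and 3 and 2 in ARID1B-KO (54.5% and 45.5% called, against 35.4% and 46.7% of all genes). Between genotypes 5 were higher in ARID1B-KO and 1 lower with DMSO, and 2 and 2 with sorafenib (54.5% and 36.4%, against 27.8% and 27%). SOCS3, a feedback inhibitor of JAK kinases, had 5, 7 and 7 counts in WT with DMSO, 31, 27 and 23 in WT with sorafenib, 0, 0 and 0 in ARID1B-KO with DMSO and 0, 3 and 3 in ARID1B-KO with sorafenib, and reached the filter level in the treated WT libraries alone. It is among the counts above, including the 1 lower with DMSO, and no fold change is given for it. CISH, of the same family, rose in WT by 1.19 ± 0.26 (edgeR adjusted p = 0.00345), was higher in ARID1B-KO with DMSO by 0.95 ± 0.26 (0.0175) and was at 0.59 ± 0.25 in ARID1B-KO (0.0731). The phosphatase PTPN6 rose by 1.01 ± 0.13 and 1.00 ± 0.14, and PTPN11 fell by 0.41 ± 0.08 and 0.73 ± 0.08 on the log2 scale.

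Of 18 MHC class I antigen presentation genes 14 were tested, with 1 higher under sorafenib in WT and 6 in ARID1B-KO and none lower (7.14% and 42.9% called, against 35.4% and 46.7% of all genes). Between genotypes 0 were higher and 2 lower with DMSO, and 1 and 2 with sorafenib (14.3% and 21.4%, against 27.8% and 27%). TAPBP and TAPBPL, peptide-loading chaperones, rose in ARID1B-KO by 0.91 ± 0.26 (edgeR adjusted p = 0.0131) and 0.84 ± 0.22 (0.00687). PSMB8, an immunoproteasome subunit, had 3, 3 and 8 counts in untreated and 32, 12 and 27 in treated ARID1B-KO libraries, and rose there by 2.27 ± 0.56 (0.00478). It reached the filter level in 8 libraries: 2 untreated WT, 3 treated WT and 3 treated ARID1B-KO. No untreated ARID1B-KO library reached it, and counts this few make the fold change imprecise.

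Of 44 other interferon-stimulated genes, 35 were tested. In that list 16 were higher and 4 lower under sorafenib in WT, 17 and 7 in ARID1B-KO, 11 and 1 in ARID1B-KO against WT with DMSO, and 13 and 4 with sorafenib. The shares called were 57.1%, 68.6%, 34.3% and 48.6%, against 35.4%, 46.7%, 27.8% and 27% of all genes. Their median log2 fold changes were 0.35, 0.40, 0.12 and 0.21, against 0.27, 0.37, 0.13 and 0.29 for the 29 tested members. NMI, an interferon-induced partner of IFI35, was at 3.05, 2.53 and 3.07 CPM in WT with DMSO and 10.1, 8.09 and 10.4 CPM in ARID1B-KO with DMSO. It was higher in ARID1B-KO by 1.72 ± 0.17 (edgeR adjusted p = 9.95e-06) and, with sorafenib, 1.75 ± 0.17 (8.12e-06). RTP4 had 7, 9 and 4 counts in WT with DMSO and 9, 3 and 18 in WT with sorafenib. In ARID1B-KO it had 17, 21 and 17 with DMSO and 40, 35 and 28 with sorafenib. It reached the filter level in 1 WT library and all 6 ARID1B-KO libraries. RTP4 is among the counts of calls above, and no fold change between genotypes is given for it. TRIM22 rose under sorafenib in ARID1B-KO by 1.61 ± 0.36 (0.00254). APOL1 rose there by 1.86 ± 0.51 (0.0161), with an untreated library 3 at 5.15 CPM against 32.2 and 27.1 CPM in the other two.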

How the data were processed

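Polyadenylated RNA of 12 HepG2 libraries in 4 groups of 3 was sequenced as paired reads, per the labels' protocols. The estimated counts and TPM deposited by the authors come per transcript from Salmon, per the file headers and the submitters' processing notes, which give no Salmon version and also name DESeq2 1.46.0 and the build GRCh38. Effective transcript length is given beside them, per the file headers. The design text names Ensembl release 109. The 37 members, the lists and the tests were chosen with earlier results of these data known.

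Each table held 177456 transcripts, and 165533 (93.3%) were matched to GENCODE release 44. The rest, 2.872% to 3.204% of a library's counts, were left out. Estimated counts were summed per gene and rounded to whole numbers. edgeR 4.0.16 was run in R 4.3.3 with filterByExpr, TMM factors and robust quasi-likelihood tests, 1 mean per group over all 12 libraries, adjusted by Benjamini-Hochberg and called under 0.05. Scripts were tested on simulated data. CPM used TMM library sizes. SE is the size of the log2 fold change over the root of the F statistic. Values per library are given for called members that averaged 1 CPM or more in some group, and up to 4 genes are named per list, with IFNAR1, IFNAR2, IFNLR1, JAK1 and TYK2 whatever their values. Some genes that the rule takes are not reported here. Alternatives were RLE factors, DESeq2 1.42.0, other filters, only the groups compared, a transcript length offset, a replicate block, limma 3.58.1 on log2(TPM + 1) and log2(TPM + 0.1), and each library left out.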

Additional observations from a re-analysis of the deposited data

How the results depend on the processing

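Of the 57 calls of single members, 33 held under every alternative tried, 23 ended with the transcript length offset, and no fold change that was called reversed its direction. Counts of members called higher under sorafenib in WT went from 11 to 7 with the length offset, with limma on log2(TPM + 1) and with limma on log2(TPM + 0.1), and counts called lower from 3 to 6 when only the groups compared were fitted. In ARID1B-KO against WT with DMSO, the 4 called lower became 2 with the length offset and 2 with log2(TPM + 0.1). With sorafenib the 10 called higher became 5 with the length offset, 5 with log2(TPM + 1) and 4 with log2(TPM + 0.1). The 5 with the length offset include an added call of DTX3L, and the 5 with log2(TPM + 1) an added call of IFIT2. The 6 called lower became 2 in each of these alternatives. In the test of the difference in response, DESeq2 called 1 member lower where edgeR called 0. Leaving out each library in turn gave 9 to 12 higher and 3 to 4 lower for sorafenib in WT, 11 to 14 and 3 to 5 in ARID1B-KO, 5 to 8 and 3 to 5 for genotype with DMSO, 4 to 11 and 4 to 6 for genotype with sorafenib, and 0 for the difference in response. For genotype with sorafenib, the 10 higher calls became 4 without WT sorafenib library 1, 5 without WT sorafenib library 3 and 5 without ARID1B-KO sorafenib library 2. The cause of these changes was not tested. Whether the replicate numbers pair the libraries cannot be decided from 3 libraries per group. Same-numbered treated and control libraries deviated together with correlations of 0.331, 0.152 and -0.0551 in WT, and 0.235, -0.122 and 0.502 in ARID1B-KO. Between genotypes, same-numbered untreated libraries had correlations of -0.155, 0.214 and -0.295. Treated ones had -0.352, -0.0888 and 0.0945. Libraries of different number ranged from -0.49 to 0.433 over the 4 comparisons. With the replicate block, 12 members were higher and 3 lower for sorafenib in WT, 13 and 5 in ARID1B-KO, 6 and 3 for genotype with DMSO, 11 and 5 with sorafenib, and 0 for the difference in response. The block ended the genotype calls of OAS1 with DMSO (adjusted p = 0.054) and sorafenib (0.0625) and of XAF1 with sorafenib (0.0567), and added IFIT3 (0.0478) and IFI6 (0.0451) between treated genotypes, IFIT5 in ARID1B-KO (-0.34, 0.0452) and IFIT2 in WT (0.049). Counts under about 30 per library, as for HERC5 and IFIT2, limit what these libraries can resolve, and libraries left out from a group of 3 leave 2.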
